A study of Schistosoma mansoni with 6 samples.

Results

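The 8 nuclear receptors described here were chosen by their head and tail levels among the 10831 genes of the deposited table. They are Smp_212440 and Smp_212430, both annotated as nuclear hormone receptors, hormone receptor 4 (HR4, Smp_041540), e78 (Smp_000340), FTZ-F1 (Smp_130200), 2DBD gamma (Smp_163790), a receptor of subfamily 4 group A (NR4A, Smp_139200) and a receptor of subfamily 1 (Smp_144170). By annotation 15 further genes of the table were nuclear receptors, which makes 23 in all. Because the choice used the contrast between heads and tails, the levels and ratios of the 8 genes are given as a description, with no test.

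Nuclear receptors are transcription factors that bind DNA through a paired zinc finger domain and, in most members, bind a small lipophilic ligand such as a steroid, a thyroid hormone or a retinoid through a domain at the carboxyl end. In insects they carry the ecdysone signal that times moulting and egg production, and in vertebrates they carry sex steroid, thyroid and retinoid signals. Flatworms lack some of these hormones but hold a broad receptor family, including receptors with an additional DNA-binding domain (2DBD), so the place of each receptor in the female body is of interest for egg production.

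RNA came from adult female *Schistosoma mansoni*, the blood fluke, recovered from mice 7 to 8 weeks p.i. Each worm was cut on both sides of the ovary, and the anterior pieces (heads) and the posterior pieces (tails) of many worms were pooled for each extraction. A head holds the oral end, the oesophagus with its gland and the anterior reproductive ducts, while a tail is filled mostly by the vitellarium, the organ of yolk cells (vitellocytes) that supply the egg with nutrients and eggshell. There were 3 head and 3 tail libraries from separate rounds of extraction, none of them treated, and the labels separate the groups by body region alone.

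Values are normalized counts, i.e. reads per gene divided by the size factor of the library, a scale for its depth. The authors deposited only the mean of each group. Reads of single libraries were recovered from these means for genes of low to moderate level (head means up to 400, tail means up to 1500). The table carries no replicate numbers, so the head libraries are called H1, H2 and H3 (size factors 2.55, 2.35 and 2.08) and the tail libraries T1, T2 and T3 (0.72, 0.35 and 0.32), in falling order of size factor. Estimated depth on genes was 25.4 to 31.1 M reads in the head libraries and 5.25 to 11.8 M in the tail libraries, and the mean that 3 reads in a whole group would give was 0.43 for heads but 2.16 for tails. Marker genes of each region were compared between the groups. The 8 markers of vitelline cells (tyrosinases, superoxide dismutase, p14, p48, tes1, tes2 and fs800) were all higher in tails, with a summed mean of 8119 in heads and 759400 in tails, and none was at 0 in either group. The 5 markers of the oesophageal gland (MEG-14, the MEG-8 genes, MEG-9 and VAL-7) summed to 85614 in heads and 444 in tails. The study drew such markers from its head- and tail-enriched genes in these same data, although several of the vitelline ones were known earlier. Their direction is therefore no independent check of the labels. A level is not corrected for gene length, so levels are compared between body regions or libraries and not between genes.

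Of the 8 receptors, 6 had a tail mean at least 2-fold above the head mean and 2 had a head mean at least 2-fold above the tail mean. Over all 8774 genes with a mean over the libraries of at least 10, 13.1% were at least 2-fold higher in tails and 23.1% at least 2-fold higher in heads. As the receptors were listed for this contrast, nothing can be read from their share. In bulk RNA, a difference in the number of cells of a type cannot be told apart from a difference in RNA per cell. The receptors spanned a wide range, from a log2 ratio (tail over head) of 6.34 for Smp_212440 to −2.06 for NR4A, against a median of 0.00 over all genes of that level. Reads were recovered in heads for 7 of the receptors, in tails for 6 and in both groups for 5. In all 5 the head and tail libraries did not overlap, with tails above in 4 and heads above in 1. Among the 3371 genes with a mean of at least 10 and reads recovered in both groups, all tail libraries lay above all head libraries in 28.1% and all head libraries above all tail libraries in 47.9%.

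**Figure D1:**
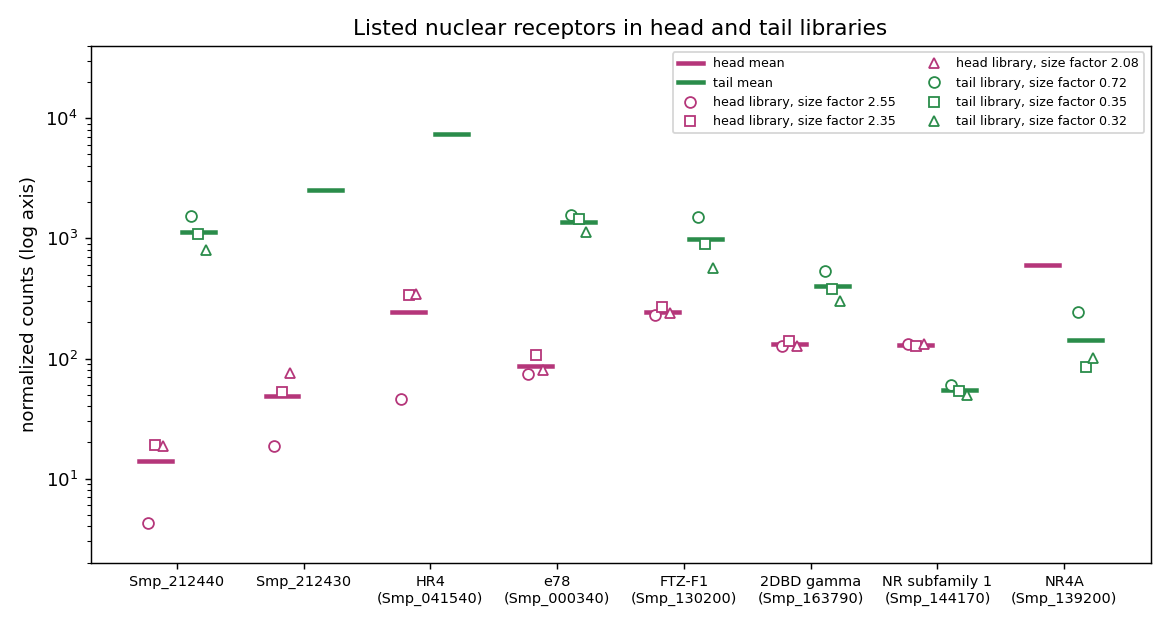
Normalized counts (log axis) of the 8 receptors in heads (magenta) and tails (green), where horizontal lines are the authors' group means and open symbols are single libraries where reads were recovered; the receptors are ordered by the ratio of tail to head mean, from 80.9 for Smp_212440 to 0.239 for NR4A, and the circles mark H1 and T1.

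The largest ratios belonged to a pair of neighbouring genes annotated only as nuclear hormone receptors. Smp_212440 had 4.31, 19.2 and 18.7 normalized counts in H1, H2 and H3. In T1, T2 and T3 it had 1528, 1078 and 804. The lowest tail library thus stood far above the highest head library, although the head level rested on only 11, 45 and 39 reads. The tail mean of 1137 ± 365 (SD, n = 3) was 80.9 times the head mean of 14.1 ± 8.45 (SD, n = 3), a log2 ratio of 6.34. With a library left out this ratio lay between 5.91 and 6.63.

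Smp_212430 had 18.8, 52.8 and 75.8 normalized counts in H1, H2 and H3, from 48, 124 and 158 reads. Its reads in single tail libraries could not be recovered, and the authors' tail mean was 2542. This mean was 51.7 times the head mean of 49.1 ± 28.7 (SD, n = 3), a log2 ratio of 5.69, which moved to 5.30 without H1 and to 6.15 without H3. In the RefSeq annotation of assembly ASM23792v2, which matched all 8 receptors, Smp_212430 and Smp_212440 lie next to each other with only a tRNA gene between them. The protein-coding genes on their outer sides did not show such ratios. Smp_044060, annotated as high affinity cAMP specific, had a head mean of 231 and a tail mean of 103, a log2 ratio of −1.17, and the mitochondrial folate carrier gene Smp_044020 had 267 and 359.9, a log2 ratio of 0.43. How alike the sequences of the receptor pair are was not examined, so whether reads of one gene were counted to the other is not known.

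HR4 (Smp_041540) was named after a receptor of *Drosophila* that is switched on by ecdysone and helps to time the steps of metamorphosis. In H1, H2 and H3 it had 46.3, 340 and 342 normalized counts, from 118, 799 and 712 reads. H1 was low and the others were nearly level, a 7.39-fold spread. The authors' tail mean was 7456, too high for the recovery of reads, and was 30.7 times the head mean of 243 ± 170 (SD, n = 3). The log2 ratio of 4.94 was 4.45 without H1 and 5.27 without H3.

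The receptor e78 (Smp_000340) is the homologue of the *Drosophila* gene Ecdysone-induced protein 78C, an early target of the ecdysone pulse. It had 74.1, 107 and 79.7 normalized counts in H1, H2 and H3, from 189, 252 and 166 reads. In T1, T2 and T3 it had 1564, 1453 and 1124, from 1125, 512 and 359 reads. The highest head library stood far below the lowest tail library. The tail mean of 1380 ± 229 (SD, n = 3) was 15.9 times the head mean of 87.0 ± 17.8 (SD, n = 3), a log2 ratio of 3.99 that stayed between 3.88 and 4.17 with any library left out. Among the 8 receptors, e78 was the only gene for which the study listed a cloned cDNA fragment for in situ hybridization. By that method the study reported e78 among new markers of the vitellarium. Its primers, which set the ends of that fragment, are shown because they define which transcript the name e78 refers to, and are printed 5′ to 3′ in lower case throughout.
e78 forward: attcaaatggttccccatca
e78 reverse: ttgcaaggagtgaatgttgc

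FTZ-F1 (Smp_130200) belongs to the subfamily of *Drosophila* Ftz-f1, a competence factor between ecdysone pulses, and of vertebrate steroidogenic factor 1, which controls genes of steroid synthesis. It had 229, 267 and 241 normalized counts in H1, H2 and H3. In T1, T2 and T3 it had 1505, 891 and 567. The heads were nearly level while the tails spread 2.66-fold, and the lowest tail library still stood above every head library. The tail mean of 987 ± 476 (SD, n = 3) was 4.02 times the head mean of 246 ± 19.3 (SD, n = 3), and the log2 ratio of 2.01 lay between 1.57 and 2.28 with a library left out. The other FTZ-F1 gene, FTZ F1 beta (Smp_068780), had group means of 1064 (heads) and 1387 (tails) as deposited, a log2 ratio of 0.38 that would be −0.05 if the groups were scaled to equal totals.

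2DBD gamma (Smp_163790) is one of the receptors with an additional DNA-binding domain. Its normalized counts were 127, 141 and 127 in H1, H2 and H3, and 534, 380 and 300.5 in T1, T2 and T3. The groups did not overlap, and the tails again spread more than the heads. The tail mean of 405 ± 119 (SD, n = 3) was 3.07 times the head mean of 132 ± 7.86 (SD, n = 3), a log2 ratio of 1.62, with a range of 1.37 to 1.79 when a library was left out. The gene Smp_034860 carries the same annotation, 2DBD-gamma, but had a log2 ratio of −1.55, with 26.3, 23.4 and 22.1 in heads and 6.95, 11.3 and 6.26 in tails. The counts of this gene were low, 168 reads in all head libraries and 11 in all tail libraries. 2DBD-alpha (Smp_016180) had a log2 ratio of 0.60, with 297, 329 and 319 in heads and 556, 573 and 304 in tails, so its groups overlapped.

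NR4A (Smp_139200) belongs to the subfamily of vertebrate Nur77 and *Drosophila* HR38, receptors best known as immediate early genes that are switched on soon after a stimulus. It had the largest ratio towards heads. The authors' head mean was 601.6, above the limit for recovery, and T1, T2 and T3 had 246, 85.1 and 100.2, from 177, 30 and 32 reads. The head mean was 4.18 times the tail mean of 144 ± 88.9 (SD, n = 3), a log2 ratio of −2.06. This ratio depended on T1, without which it was −2.70.

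The subfamily 1 receptor Smp_144170, of the subfamily that includes thyroid hormone, retinoic acid and ecdysone receptors, had the lowest coefficient of variation of the recovered receptors in heads and in tails. Its normalized counts were 133, 126 and 133 in H1, H2 and H3, and 59.8, 53.9 and 50.1 in T1, T2 and T3, the latter from 43, 19 and 16 reads. The groups did not overlap. The head mean of 131 ± 3.99 (SD, n = 3) was 2.39 times the tail mean of 54.6 ± 4.89 (SD, n = 3), and the log2 ratio of −1.26 lay between −1.33 and −1.20 with any library left out.

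The receptors differed in how evenly they were present in the 3 head libraries. The coefficient of variation among heads was 70.1% for HR4, 60.1% for Smp_212440 and 58.4% for Smp_212430, but 20.4% for e78, 7.87% for FTZ-F1, 5.96% for 2DBD gamma and 3.06% for Smp_144170. The median over the 3412 genes with a mean of at least 10 and recovered head reads was 8.67% (quartiles 5.23% and 14.3%). Among the 72 of these genes that had a head mean of at least 10 and a tail mean at least 8-fold higher, the median was 47.7%. HR4, Smp_212440 and Smp_212430 were lowest in H1, where they had 0.191, 0.307 and 0.383 of their head mean. H1 was the lowest head library for 5 of the 7 receptors, for 4 of the 5 other receptors of that level, for 44.8% of the 3412 genes and for 62 of the 72 genes (86.1%). For e78 the value in H1 was 0.852, although its ratio of tail to head was also above 8-fold.

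Vitelline markers varied in the same libraries. For the 3 of 8 markers with recovered head reads (tyrosinase 1, tyrosinase 2 and fs800), the summed level was 12.5, 265 and 776 in H1, H2 and H3. The tyrosinases carried this sum, since fs800 had only 1, 3 and 0 reads there. nanos-1 (Smp_055740), an RNA-binding protein that the study used as a marker of the vitelline stem cells, had 5.10, 54.9 and 48. The study also saw nanos-1 in the anterior part of the ovary, the organ that lay between the cuts. HR4 and Smp_212440 were about level between H2 and H3, as was nanos-1, whereas tyrosinase 1 had 197 and 514 there and tyrosinase 2 had 67.3 and 262. Smp_212430, with 52.8 and 75.8, lay between. These are 3 libraries, and the part of vitelline tissue or of ovary in the head levels of the receptors was not tested.

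**Figure D2:**
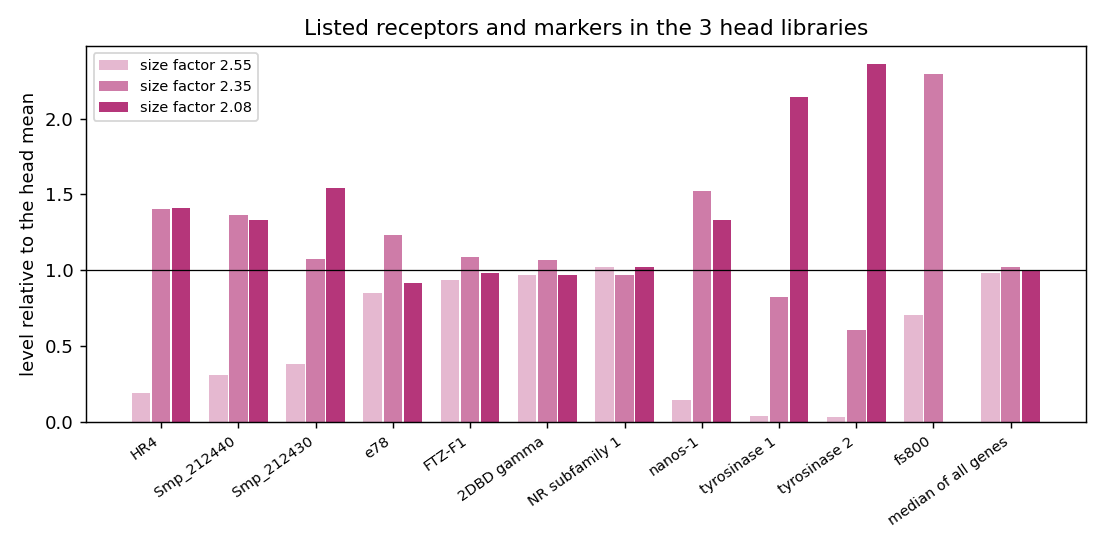
Level of each gene in the 3 head libraries, relative to its head mean (horizontal line at 1), for the 7 receptors with recovered head reads, nanos-1, tyrosinases 1 and 2, fs800 (4 reads in all) and the median of all genes. HR4, Smp_212440 and Smp_212430 were low in H1 (0.191, 0.307 and 0.383), as were nanos-1 (0.142) and the tyrosinases (0.0360 and 0.0318), while the other 4 receptors lay between 0.852 and 1.23 in every head library.

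In tails the receptors shared another order. All 6 receptors with recovered tail reads were highest in T1, against 49.0% of the 6004 genes with a mean of at least 10 and recovered tail reads, and 2 of the 7 other receptors of that level. Relative to the tail mean, that library held 1.71 of NR4A, 1.52 of FTZ-F1, 1.34 of Smp_212440, 1.32 of 2DBD gamma, 1.13 of e78 and 1.10 of Smp_144170, against a median of 1.07 over all genes. nanos-1 and fs800 had 0.887 and 0.826 there, and the 5 oesophageal gland markers had 0.540 to 0.773. The depth of this library was 11.8 M reads against 5.25 and 5.79 M in the others. The receptors are not independent of each other within a library, and the part of depth or of tissue in this order was not tested. The coefficient of variation among tails ran from 8.96% for Smp_144170 to 61.8% for NR4A, with a median over all genes of 20.8%.

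**Figure D3:**
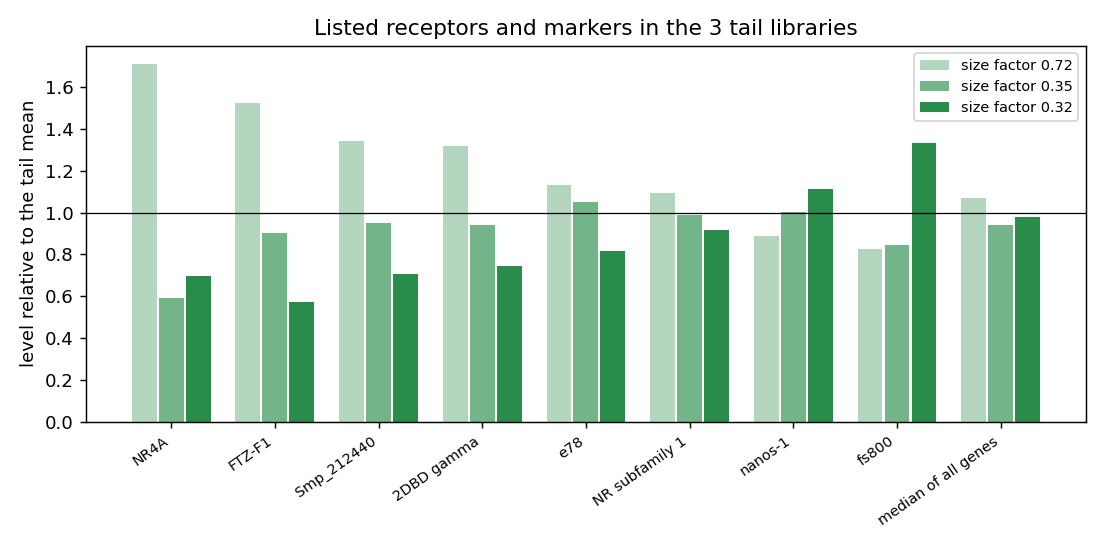
Level of each gene in the 3 tail libraries, relative to its tail mean (horizontal line at 1), for the 6 receptors with recovered tail reads, nanos-1, fs800 and the median of all genes. All 6 receptors stood highest in T1, from 1.10 for the subfamily 1 receptor to 1.71 for NR4A, while nanos-1 (0.887) and fs800 (0.826) were lowest there.

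The list of 8 does not hold every receptor with such a ratio. Of the 15 other receptors, 14 had reads and 10 had a mean of at least 10. Of these 10, 1 had a tail mean at least 2-fold higher and 4 had a head mean at least 2-fold higher. The listed receptors with the smallest ratios were Smp_144170, at −1.26, and 2DBD gamma, at 1.62. Beyond them and outside the list were COUP transcription factor 2 (Smp_174750) at 1.91, Smp_034860 at −1.55, estrogen receptor beta1 (Smp_098650) at −1.50 and thyroid hormone receptor beta (Smp_174260) at −1.41. HNF 4 (Smp_174700), also outside the list, had a smaller ratio towards heads than Smp_144170, at −1.12.

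**Figure D4:**
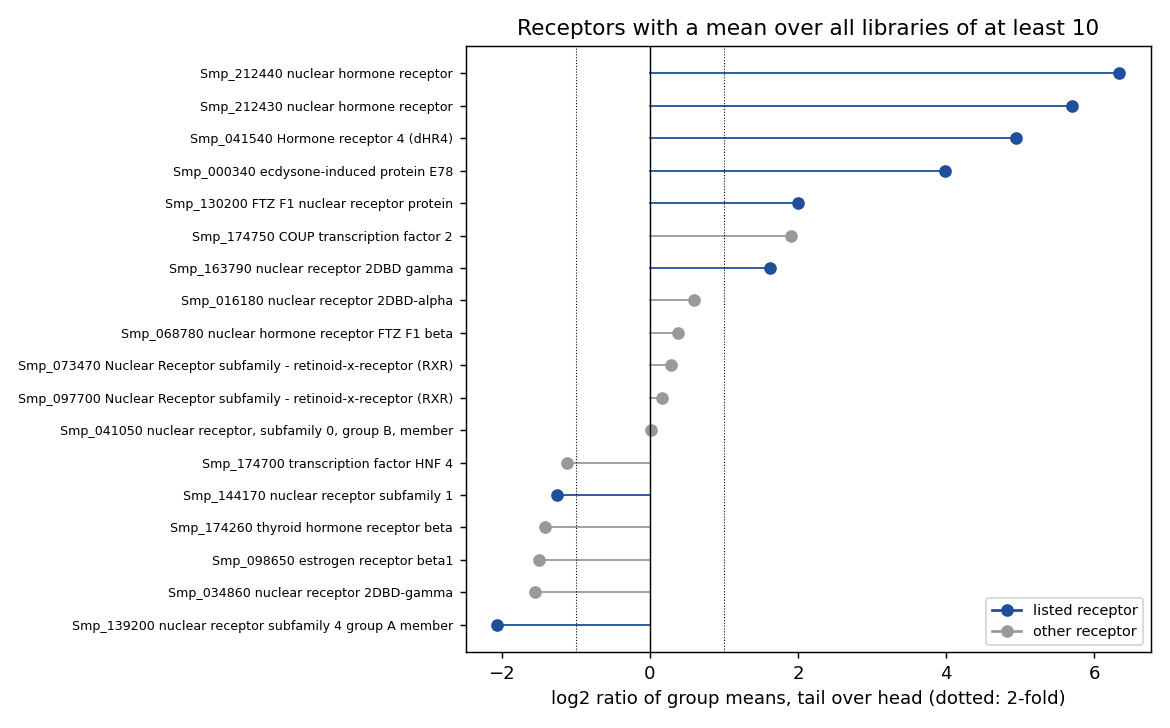
Log2 ratio of the group means, tail over head, for the 8 listed receptors (blue) and the 10 other receptors whose overall mean was 10 or more (grey), with dotted lines at a 2-fold difference. The 4 largest ratios in tails, from 3.99 to 6.34, all belong to listed receptors, and 4 other receptors lie beyond 2-fold towards heads, at −1.12 to −1.55.

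The other receptors are those left after the choice of 8 on the same contrast. They could be tested with limma where reads were recovered in both groups, which held for 8 of the 15 with at least 10 reads. At a limma adjusted p under 0.05, 1 of them rose in tails and 4 fell, against 22.6% and 41.3% of the 3967 genes tested. Estrogen receptor beta1, a name that comes from annotation alone, fell in tails. It had 216, 246 and 239 in heads and 118, 51.1 and 78.2 in tails, a difference of −1.57 ± 0.29 (SE) on the log2(value + 1) scale (adjusted p = 0.00231 from limma). Thyroid hormone receptor beta, annotated after the vertebrate receptor for thyroid hormone, had 95.3, 104 and 118 in heads and 54.2, 36.9 and 28.2 in tails, a difference of −1.43 ± 0.28 (SE) (adjusted p = 0.00291 from limma). Smp_034860 fell by 1.48 ± 0.35 (SE) on that scale (adjusted p = 0.00725 from limma). These 3 receptors passed the test under all 12 alternatives, with adjusted p from 0.000494 to 0.0363.

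The photoreceptor specific nuclear receptor (Smp_167770), named after a vertebrate receptor of retinal photoreceptors, was the fourth to fall in tails (adjusted p = 0.000557 from limma, 0.000148 to 0.00353 over the alternatives). Its reads numbered 14, 11 and 11 in H1, H2 and H3, and T1, T2 and T3 had none. Its head mean of 5.15 was at least 2.39-fold above the mean that 3 reads over the tails would give. COUP transcription factor 2, a receptor with roles in neural and organ development in other animals, was higher in tails (adjusted p = 0.0351 from limma), but at low counts. It had 3.53, 3.83 and 6.24 in heads and 11.1, 8.51 and 31.3 in tails, and its adjusted p was 0.0201 to 0.111 over the alternatives, and it passed in 8 of 12. The call was lost when any of the 3 head libraries was left out (adjusted p from limma of 0.0586 to 0.111) and without T3, which held the value of 31.3 (0.0563).

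Of the tested receptors, 3 did not pass. The values of 2DBD-alpha were a difference of 0.54 ± 0.24 (SE) and an adjusted p of 0.0778 from limma, which was 0.00115 without T3 and 0.00115 to 0.225 over the alternatives, 1 of 12 of which passed. Thyroid hormone receptor alpha (Smp_134490) and Dissatisfaction (Smp_150630), a relative of a *Drosophila* gene of sexual behaviour, had group means under 4 and adjusted p of 0.663 and 0.469 from limma, with 25 and 9 reads over all heads and 2 and 1 over all tails. Dissatisfaction passed in 1 of 11 alternatives, without T3, the library that held its only tail read (adjusted p from limma of 0.0232, and 0.0232 to 0.828 over the alternatives). The receptor of subfamily 2 group E (Smp_155250) had 4 reads in heads and none in tails, and that of subfamily 2 group F (Smp_139360) had no reads.

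The levels of receptors that act as common partners lay above the limit of recovery in heads. The retinoid X receptors, with which many other nuclear receptors pair on DNA, had deposited head and tail means of 1273 and 1554 (Smp_073470) and of 821 and 921 (Smp_097700), log2 ratios of 0.29 and 0.17. The subfamily 0 group B receptor (Smp_041050), of a subfamily known in vertebrates for lacking the usual DNA-binding domain, had 1274 and 1283, a log2 ratio of 0.01. With the groups scaled to equal totals, a shift of −0.43 in every log2 ratio, these 3 values would lie below 0. No test was made. HNF 4 (Smp_174700), in vertebrates a receptor of liver and gut that binds fatty acids, had an authors' head mean of 423 and 211, 153 and 219 in the tail libraries, and was not tested for the same reason.

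Genes that act with nuclear receptors are mostly too abundant for the recovery of reads. Coregulators are the proteins that receptors recruit to switch transcription on or off. Word patterns for them matched 34 genes. Among these were thyroid hormone receptor interactor 10 (Smp_071150) and nuclear receptor binding protein (Smp_046140), whose annotations name no coregulator. Of the 34 genes, 32 had a mean of at least 10. Of these, 28 (87.5%) had the higher mean in tails, against 50.1% of all 8774 genes of that level. At equal group totals 20 of the 32 (62.5%) would, against 32.0% of all genes. A tail mean at least 2-fold higher was found for 5 of the 32, near the 13.1% of all genes. A head mean at least 2-fold higher was found for 0 of the 32, against 23.1% of all genes. The coregulators and all genes were not matched by level. The median log2 ratio of the coregulators was 0.53, which would be 0.10 at equal group totals. CREB binding protein (Smp_127010), a histone acetyltransferase, had deposited means of 1517 (heads) and 4208 (tails), and the CBP/p300 gene Smp_105910 had 3868 and 9619. The nuclear receptor corepressor gene ncor (Smp_163290) had 1753 and 2987, and nuclear receptor coactivator 2 (Smp_159380) had 504 and 800.3. Nuclear receptor coactivator 5 (Smp_094630) had 2891 and 4022. Of the 32, 4 had the higher mean in heads, among them the Sin3 corepressor complex gene Smp_204740 with 2145 and 1771. At equal group totals the log2 ratio of each of these genes would be lower by 0.43. Of the 19 genes of Mediator, the complex that links transcription factors to RNA polymerase II, 17 had the higher mean in tails, 11 at equal group totals, with log2 ratios from −0.35 to 1.80. Only 2 coregulators could be tested. A corest gene, Smp_178800, of a corepressor that works with histone demethylases, was higher in tails by 1.17 on the log2(value + 1) scale (adjusted p = 0.000941 from limma). Another gene of the same annotation, Smp_064650, was not tested. It had deposited means of 1018 (heads) and 1166 (tails), a log2 ratio of 0.20. The SKI family corepressor Smp_080560, with 58 head and 4 tail reads, was lower in tails by 1.23 (adjusted p = 0.0159 from limma), which did not pass without H1.

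The list of likely makers or carriers of lipophilic ligands, drawn from annotation, held 31 genes. It held retinol and steroid dehydrogenases, cytochrome P450 and its reductase, and retinaldehyde, oxysterol and fatty acid binding proteins. It also held sterol acyltransferases, a sterol esterase and Niemann Pick proteins. Whether each acts on a receptor ligand was not examined. Of the 31 genes, 29 had a mean of at least 10. Of these, 3 were at least 2-fold higher in tails and 6 in heads, near the shares of all genes (13.1% and 23.1%). Their median log2 ratio was 0.17, which would be −0.25 at equal group totals. Of the 11 that could be tested, 1 was called higher in tails and 3 in heads, against 22.6% and 41.3% of all genes tested. An oxysterol binding protein (Smp_179720) was higher in tails by 0.79 (adjusted p = 0.00198 from limma), and the steroid dehydrogenase gene Smp_168550 was lower in tails by 1.44 on the log2(value + 1) scale (adjusted p = 0.00273 from limma). Another steroid dehydrogenase gene, Smp_117920, had a mean of 162 in heads and 57.7 in tails (adjusted p = 0.000903 from limma). The cytochrome P450 gene Smp_156400 was the other that passed, also lower in tails (adjusted p = 0.00844 from limma). The steroid dehydrogenase genes did not share a direction. Smp_009430, not tested, had 989 in heads and 2670 in tails. Smp_102190, Smp_131430 and Smp_178940 also had the higher mean in tails but did not pass (adjusted p from limma of 0.0563, 0.118 and 0.593). Smp_168560 and Smp_084570 had the higher mean in heads and were not called. Not tested were the genes of this list with the largest ratio of group means in each direction. They were a retinaldehyde binding protein gene (Smp_158620) with 759.7 in heads and 2086 in tails, and a phosphatidylcholine sterol acyltransferase gene (Smp_160880) with 2468 and 639.7.

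The genes with the most similar profile over the 6 libraries were sought among the 3371 genes above, by the root mean square difference of log2(value + 1) after each gene was centred on its mean. For e78 they were a hypothetical protein gene, Smp_126430 (difference 0.157), and a gene with ras and EF hand domains, Smp_170770 (0.167). Their head means were only 3.46 and 8.81, against 87.0 for e78, and the added 1 weighs most at such low levels. Their log2 ratios of group means were 4.50 and 3.83, against 3.99 for e78. For Smp_212440 they were a glutamate semialdehyde dehydrogenase gene, Smp_145020 (0.401), and the eggshell domain gene Smp_112450 (0.405). The head means of these 2 genes were also low, at 8.38 and 11.8, with log2 ratios of 5.73 and 6.28. For FTZ-F1 they were the fibronectin type III domain gene Smp_096370 (0.0873) and the transmembrane protein 131 gene Smp_136390 (0.142). 2DBD gamma was closest to a heterogeneous nuclear ribonucleoprotein gene, Smp_155850 (0.0614), and a MYST histone acetyltransferase gene, Smp_131320 (0.0993). Smp_144170 was closest to an ectonucleoside triphosphate diphosphohydrolase gene, Smp_166490 (0.0523), and a hypothetical protein gene, Smp_014820 (0.0731). As all of these genes were compared over the same 6 libraries, such likeness includes the difference between heads and tails that the receptors were chosen for.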

How the data were processed

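RNA from pooled head and tail fragments was sequenced as stranded libraries. Mapping by the authors used STAR 2.5.0b with WormBase ParaSite files, and DESeq 1.22 followed. The read counter, strand use and genome build are not given in the sources used here. Deposited signal values are reads divided by size factors and averaged by the authors, for heads, for tails and over all libraries. Columns of the authors' own comparison (fold changes and p-values) were not used.

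Log2 ratios were computed from the group means. A group mean adds up 3 whole numbers of reads, each times a fixed step. The steps were read from the lowest repeated means and refined by least squares, and reads were accepted where only 1 set of whole numbers gave the mean to its 10 deposited digits. This held for 4470 of 4593 genes with reads in heads and a mean up to 400 (97.3%) and for 6797 of 7426 in tails up to 1500 (91.5%). Tested on simulated data, all 4324 head and 7116 tail genes with a single solution were right. The test was limma 3.58.1 (R 4.3.3), with its trend option, on log2 of the normalized count plus 1. It covered genes whose reads were solved in heads and in tails and came to 10 or more in total, with Benjamini-Hochberg adjustment over all genes tested. Genes of higher level were not tested. P-values measure the spread between 3 extractions per group.

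The receptors, partner lists and markers were chosen with earlier results of these data known. Lists were drawn from annotation by word patterns, and matches that are no receptor, or no maker or carrier of a ligand, by annotation were left out after their values had been seen. Named were all receptors, the called partner genes with the largest ratios and the 2 closest profiles of each receptor; the remaining partner genes and the flanking genes were named after their values were seen.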

Additional observations from a re-analysis of the deposited data

How the results depend on the processing

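The direction of the log2 ratio of all 8 listed receptors held under equal group totals, pseudocounts of 1 and 10 and, where reads were recovered, with each library left out. Equal totals moved e78 to 3.56, 2DBD gamma to 1.19 and Smp_144170 to −1.69, more than their spread between libraries. With a pseudocount of 10, Smp_144170 moved to −1.12, also more than its spread between libraries. At 4-fold in place of 2-fold, 1 listed receptor was past the limit towards heads, and at 8-fold 0. With a minimum mean of 100 in place of 10, 1201 in place of 2025 genes were at least 2-fold higher in heads. In tails 997 in place of 1149 were, so the count towards heads fell more. With a library left out, 0 to 1 other receptors and 1 to 3 makers or carriers of ligands (3 without T2) were called higher in tails, and 0 to 1 coregulators and 4 to 5 other receptors higher in heads. A pseudocount of 10 gave 2 makers or carriers higher in tails. With the genes left out on annotation put back, an alternative chosen after seeing the data, 2 of that list were higher in tails and 6 in heads. No paired analysis was possible because the deposited columns carry no replicate numbers. Depth limits tails most: a gene with no tail reads may have a mean of up to 2.16 there, by counting error alone.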
